A study of Mus with 3 samples.

Results

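The effect of shochu oil on the hippocampus of mice injected with an amyloid peptide was read by setting the array of the group that received peptide and oil (ASO) against the array of the group that received peptide and water (ACO). A gene entered when its probe stood well above background on both arrays, lay outside a dark patch on the ASO array and was not saturated on both. This left 13513 of 23611 named genes. Differences are log2 signals of ASO minus ACO, after a constant of 50 was added to each signal, so the differences of dim genes are understated.

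Each group held 10 mice, males of the outbred stock Slc:ddY that were 6 weeks old. For 15 days ASO mice took shochu oil by mouth at 2000 mg/kg/day, and ACO mice took distilled water. Shochu is a distilled spirit, made here from sweet potato, and the oil is its oily fraction. On day 8, mice of both groups were injected into the cerebral ventricles with 5 µL holding 10 nmol of Aβ25-35, a short toxic stretch of the amyloid β peptide. The normal control group (NCO), whose array is shown beside these, had water in place of oil and of peptide, and how its water was injected is not spelled out. Hippocampi were taken after a short-term memory test in a Y-maze on day 16. One protocol text names the peptide and oil group by a code that no sample carries, and it was taken as ASO. RNA of 2 mice made a set and 5 sets made the pool on each array, so each group is 1 measured pool. No difference between groups could be tested, genes were counted by the size of their difference, and the spread between mice is not known.

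Microglia are the resident immune cells of the brain. They make C1q, the molecule that starts the classical complement cascade and that tags synapses and debris for removal, and they sense lipids and damage through the receptor TREM2 and its adaptor TYROBP. Around amyloid they are known to take on a disease-associated program in which genes of lipid handling, lysosomes and secreted factors are raised while some genes of the resting state are lowered. Astrocytes respond to injury with intermediate filament genes such as Gfap.

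The scaled arrays were close to each other, with 80.7% of genes less than 1.2-fold apart and a median difference of -0.013. On the ASO array 24 genes (0.178%) were at least 2-fold higher and 2 (0.0148%) at least 2-fold lower. At 1.5-fold the split was 220 higher (1.63%) and 24 lower (0.178%), while 47.1% of genes lay above 0. Handled in the same way, ACO against NCO had 27 genes at least 1.5-fold higher (0.204%) and 28 lower (0.211%). ASO against NCO had 220 (1.64%) and 35 (0.261%), and these comparisons share arrays with ASO against ACO. Of the 24 genes at least 2-fold higher, 10 belong to lists of complement, microglia, leukocytes, MHC, interferon, cytokines, Toll-like receptors or reactive astrocytes, which hold 170 of all measured genes (1.26%). The lists were chosen with earlier results of these data known, so this overlap is a description and no test. Another 8 of the 24 genes carry predicted or clone names. Among them is the largest difference, 4933431I19Rik at 1.86, which is outside the naming rule and was chosen after its values were seen.

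Several facts of the arrays bear on every difference. The share of 39427 probes above background was 51.7% on ACO and 53.7% on ASO. Saturated probes numbered 3 on NCO, 5 on ACO and 14 on ASO. The spike-in control probes above background on both arrays, 5 of 10, were higher on ASO than on ACO by 0.41 to 0.82, with a median of 0.48. On each of these 5 probes ASO lay above NCO too. The brightest had a signal of 28037 in NCO, 25039 in ACO and 33680 in ASO. The one with the largest difference was at 2995.5 in NCO, 2714.5 in ACO and 4845.3 in ASO. The part of ASO array brightness in genes highest on ASO, and in the counts of ASO against NCO, was not tested. The labels do not give the amount of spike-in per reaction. Scaled on these probes in place of the 75th percentile of gene spots, every difference would be lower by that median, none of the 49 list medians would lie above 0, and the 1.5-fold split would be 18 higher and 4213 lower. Every direction given here is relative to the other genes on the arrays. The median difference also moved with brightness: over 10 classes of equal size it was 0.053 in the dimmest, -0.056 in the eighth and 0.027 in the brightest. Markers of the hippocampus were above background on both arrays for 16 of 17 genes of dentate granule cells, 7 of 10 of CA1 and 8 of 10 of CA3, with 3 of 12 of hypothalamus and pituitary. Markers of the neighbouring striatum and thalamus were measured as often, 14 of 18.

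**Figure D1:**
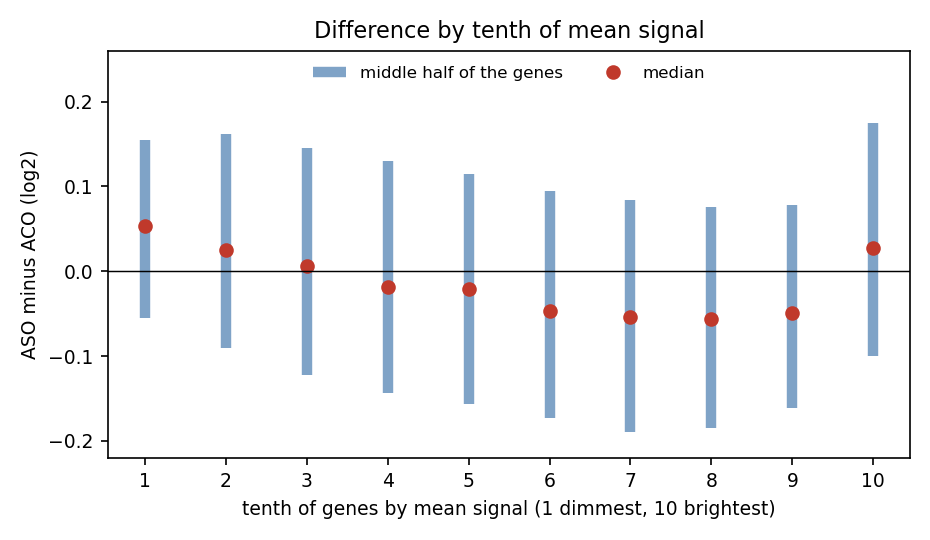
Log2 difference of ASO minus ACO (y axis) in 10 equal classes of the measured genes ordered by mean signal (x axis). Points are medians and bars run from the lower to the upper quartile, with all medians between -0.056 and 0.053.

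All 3 chains of C1q were higher on ASO by at least 2-fold, and ASO was the highest of the 3 arrays for each. C1qa had a signal of 1596 in NCO, 1327 in ACO and 2752 in ASO, a difference of 1.02. C1qb had a signal of 804 in NCO, 530.1 in ACO and 1271 in ASO, a difference of 1.19. C1qc, printed at 10 spots, had a signal of 1729 in NCO, 1253 in ACO and 2708 in ASO, and its difference of 1.08 had an SD of 0.068 over the spots, which covers spot error only. For all 3 chains ACO was the lowest array and ASO lay above both others. In whole tissue, more cells of a type and more RNA per cell cannot be told apart, and this holds for each difference that follows.

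Further down the complement cascade the differences were smaller. C3, the central component whose fragments coat targets, was at 501 in NCO, 572 in ACO and 877 in ASO, with differences of 0.58 and, on a second probe, 0.46. C4b, which acts just before C3, was at 1743 in NCO, 3357 in ACO and 4177 in ASO, a difference of 0.31, and here ACO already lay well above NCO. Receptors and regulators lay mostly the other way, with 6 of 8 measured genes below 0. Cd55 had a difference of -0.27 and Cd59a of -0.20, both of which restrain complement on host cells. Csmd1, another regulator, was at -0.51 on its brighter probe and 0.0049 on the other. Across the complement list 17 of 23 genes were measured, with a median of 0.016, and 9 lay above 0. The receptors C3ar1 and C5ar1 were not above background on both arrays. Cfb, of the alternative pathway, was above background on ASO alone, at least 1.49-fold brighter there.

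**Figure D2:**
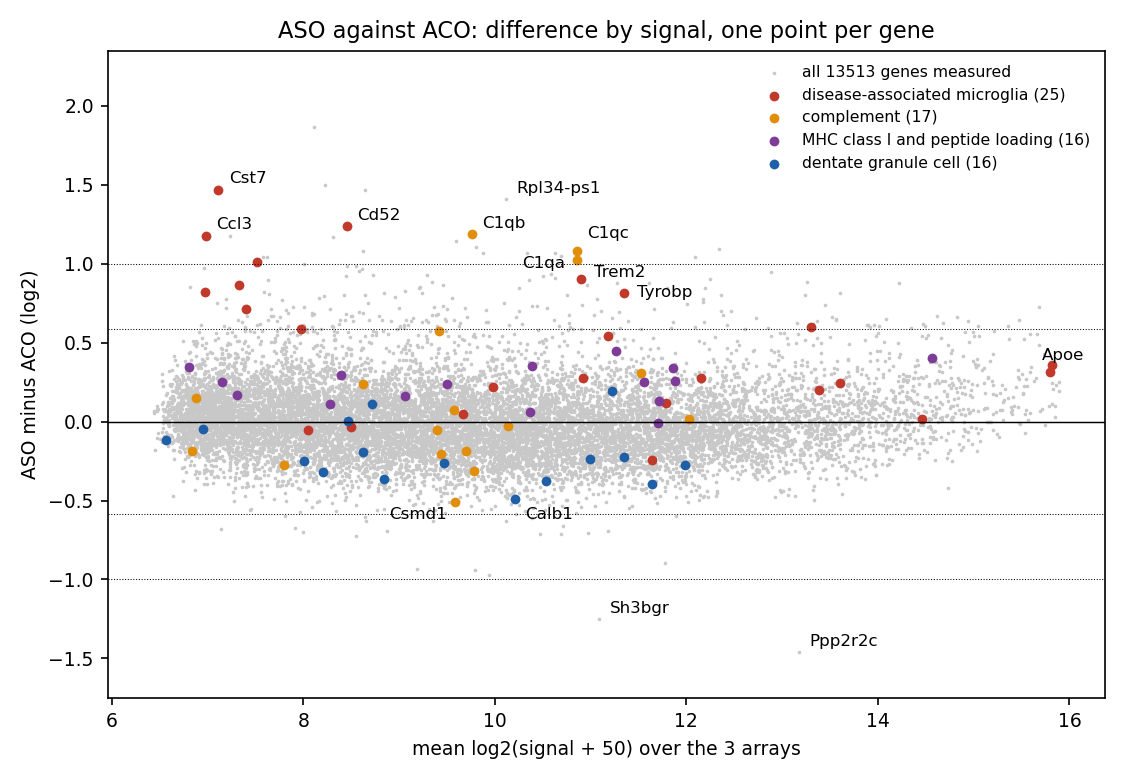
Log2 difference of ASO minus ACO (y axis) against mean log2 signal (x axis) for 13513 genes, with 4 lists coloured and dotted lines at 1.5-fold and 2-fold. The C1q genes lie above the upper 2-fold line, 11 of 25 disease-associated microglia genes lie above the upper 1.5-fold line, and 13 of 16 dentate granule cell genes lie below 0.

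Of the 49 lists, the disease-associated microglia program had the highest median. Of 29 genes 25 were measured, 22 lay above 0 and 11 were at least 1.5-fold higher, none lower. The median was 0.36, beside -0.013 over all genes. ASO was the highest of the 3 arrays for 21 of the 22 above 0. Over all genes this held for 5067 of the 6367 above 0. Being highest requires a signal above ACO, so this count is not separate from the difference itself. By role, 5 of 8 receptors and adaptors, 4 of 9 secreted factors and 2 of 8 genes of lysosomes and lipid handling were at least 1.5-fold higher.

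Among the receptors, Trem2 had a signal of 1658 in NCO, 1432 in ACO and 2727 in ASO, a difference of 0.91. Its adaptor gene Tyrobp had a signal of 2093 in NCO, 2125 in ACO and 3775 in ASO, a difference of 0.81. For both genes NCO and ACO lay closer to each other than either did to ASO. Cd52, a small surface glycoprotein of leukocytes, had a signal of 161 in NCO, 244 in ACO and 645 in ASO, a difference of 1.24. Itgax, the integrin chain CD11c, was at 79.9 in NCO, 83.0 in ACO and 192 in ASO, a difference of 0.86. Clec7a, the β-glucan receptor dectin-1, was at 51.2 in NCO, 55.5 in ACO and 137 in ASO, a difference of 0.82. Both were dim on NCO and ACO and clear of that level on ASO. The tetraspanins Cd9 and Cd63 and the receptor kinase Axl differed by 0.12, 0.20 and 0.22.

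Of the secreted factors, the chemokine Ccl3 was at 44.8 in NCO, 46.9 in ACO and 169 in ASO, a difference of 1.18. Its relative Ccl4 was above background on ASO alone, where it was at least 2.06-fold brighter than on ACO. Gpnmb, a glycoprotein of lipid-laden phagocytes, was at 109.7 in NCO, 87.8 in ACO and 228 in ASO, a difference of 1.01. All were dim on NCO and ACO. Spp1, which encodes the matrix protein osteopontin, was at 96.9 in NCO, 92.5 in ACO and 183 in ASO, a difference of 0.71. Apoe, the main lipid carrier of the brain, had a signal of 55784 in NCO, 51664 in ACO and 64253 in ASO. On ASO 55.5% of its pixels were saturated, so its difference of 0.31 is a lower bound. Igf1, Csf1 and the galectin gene Lgals3 lay close to 0, at -0.034, 0.048 and -0.054.

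Cst7, which encodes the cathepsin inhibitor cystatin F, had the largest difference of the list, with a signal of 54.4 in NCO, 46.0 in ACO and 216 in ASO, 2.77-fold after the added constant. The cathepsins themselves differed by less. Ctsd was at 0.60 on one probe and 0.45 on the other, Ctsz at 0.54, Ctsl at 0.28 and Ctsb at 0.24. Lpl, lipoprotein lipase, lay the other way at -0.24, with 0.12 on its second probe. Lyz2, the lysozyme of myeloid cells, was above background on ASO alone, at least 1.92-fold brighter there. A separate lysosome list does not hold Ctsd or the hydrolase gene Idua, which is named further below. Of its 21 measured genes 19 lay above 0, with a median of 0.16 and no member past 1.5-fold. It was led by the protease gene Ctss at 0.51, the mannosidase gene Man2b1 at 0.51, progranulin (Grn) at 0.50 and the cathepsin A gene Ctsa at 0.49, and Lipa, the lysosomal acid lipase, was lowest at -0.18.

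**Figure D3:**
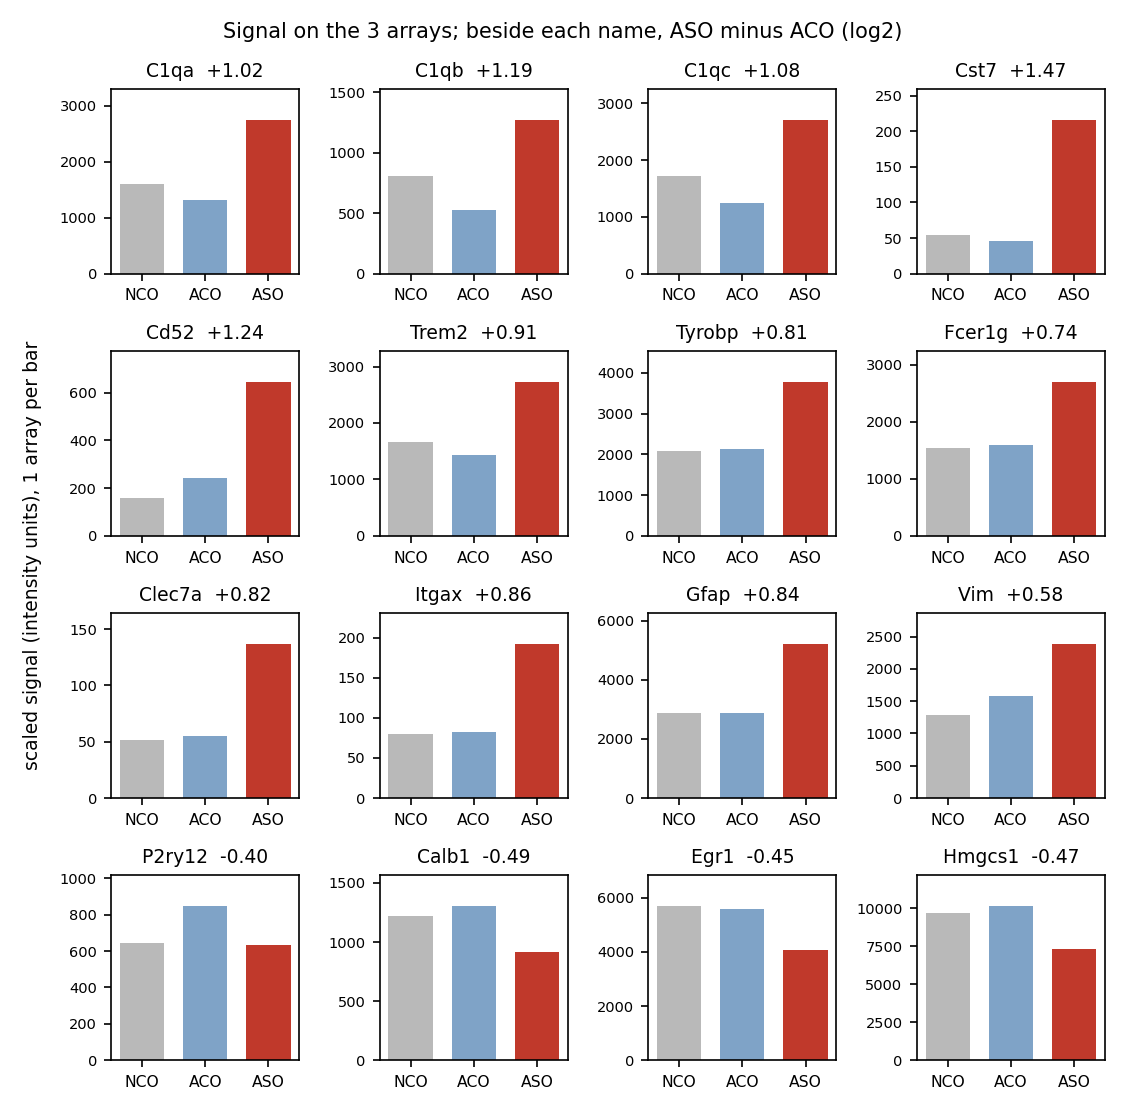
Scaled signal (y axis, intensity units) of 16 genes on the NCO, ACO and ASO arrays, 1 array per bar with no error available; the number beside each name is the log2 difference of ASO minus ACO. In the first 12 panels the ASO bar is the tallest, from Cst7 at 1.47 to Vim at 0.58, and in the last 4 it is the shortest.

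Genes of the homeostatic microglia list, drawn up for the resting state, were also mostly higher on ASO. Of 24 genes 22 were measured, and 18 lay above 0, with a median of 0.30 and 2 at least 1.5-fold higher. These were Olfml3, at 0.73 on one probe and 0.15 on the other, and the fatty acid receptor gene Gpr84 at 0.63, which counts here by its list alone. Aif1, the marker IBA1, was at 763 in NCO, 958 in ACO and 1382 in ASO, a difference of 0.51. Cx3cr1, the fractalkine receptor, and Csf1r, the receptor that microglia need to survive, differed by 0.27 and 0.13. Tmem119 was near 0 at 0.074. P2ry12, the purine receptor that guides resting processes, lay farthest the other way, with a signal of 645 in NCO, 847 in ACO and 631 in ASO and a difference of -0.40. The transcription factor genes Irf8 and Sall1, which set microglial identity, differed by 0.47 and 0.35, and Mef2c by -0.0029.

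The Fc receptor γ chain gene Fcer1g, a signalling adaptor like Tyrobp, was at 1536 in NCO, 1597 in ACO and 2699 in ASO, a difference of 0.74. Lilrb4a, an inhibitory receptor of myeloid cells, was at 72.5 in NCO, 61.2 in ACO and 201 in ASO, a difference of 1.18. Of 12 measured genes in the list of integrins, Fc receptors and leukocyte surface proteins, 10 lay above 0, with a median of 0.31. Itgam, the CD11b chain, had a signal of 8521 in NCO, 3760.2 in ACO and 4790.1 in ASO, so that ASO lay above ACO by 0.35 but far below NCO. Mpeg1, a pore-forming protein of macrophages and microglia outside these lists, was at 797 in NCO, 1140.4 in ACO and 2172 in ASO, a difference of 0.90.

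Markers of blood and of other immune cells were read beside these genes. Of 23 blood and leukocyte genes 11 were measured and 9 lay above 0, with a median of 0.23. Their summed signal was 45202 in NCO, 42920.3 in ACO and 50116 in ASO. The hemoglobin genes of red cells, whose copies are near-identical, ranged from 0.066 for Hba-a1 to 0.93 for Hbb-b2. The T-cell marker genes Cd3e and Cd4 differed by 0.40 and 0.45, both dim, and the neutrophil gene S100a9 was lower, at -0.68. S100a8, Ngp, Ltf, Cd79a, Ms4a1 and Cd8a were not above background on both arrays. Of 10 perivascular macrophage and monocyte genes 5 were measured, with a median of 0.14 and a summed signal of 574, 574 and 672 on NCO, ACO and ASO. Mrc1 differed by 0.084, and the monocyte receptor gene Ccr2, Cd163 and Lyve1 were not above background on both arrays. The part of blood and infiltrating cells in the microglial differences was not tested.

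MHC class I molecules show peptides from inside the cell, and class II molecules show peptides taken up from outside. Of 16 measured genes of class I and peptide loading 15 lay above 0, with a median of 0.25 and a range from -0.0073 to 0.45. All 8 class I chains lay above 0, with a median of 0.25. Of 8 genes of peptide loading and the immunoproteasome 7 did, with a median of 0.15. H2-D1 was at 2282 in NCO, 2111 in ACO and 2894 in ASO, a difference of 0.45, and β2-microglobulin (B2m) at 3169 in NCO, 3679.5 in ACO and 4413 in ASO, a difference of 0.26. H2-K1 differed by 0.25 over its 10 spots (SD 0.078) and by 0.37 on a second probe. The class II genes lay on both sides of 0. The invariant chain gene Cd74 was at 247 in NCO, 340.2 in ACO and 559 in ASO, a difference of 0.64, and H2-Ab1 at 0.17, but H2-Eb1 was at 282 in NCO, 461 in ACO and 259 in ASO, a difference of -0.73. H2-Aa was above background on ASO alone, with a bound just over 1.5-fold.

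Interferon-stimulated genes, the antiviral program, were mostly higher by smaller steps. Of 34 genes 25 were measured, and 21 lay above 0, with a median of 0.17 and 2 at least 1.5-fold higher. Ifi27l2a had a signal of 286 in NCO, 539.6 in ACO and 1014 in ASO, ordered from NCO through ACO to ASO, with a difference of 0.85. Oas1a, an enzyme that senses double-stranded RNA, differed by 0.77. Ifit3 and the ubiquitin-like modifier gene Isg15 differed by 0.57 and 0.55, and Bst2 by -0.053. The interferon-induced GTPases, which attack the vacuoles of intracellular microbes, had a median of -0.039, with 4 of 11 above 0. Their lowest was Tgtp2, with a signal of 490.4 in NCO, 792 in ACO and 390.4 in ASO and a difference of -0.94, and Irgm2 followed at -0.37.

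Of the chemokines 6 of 8 measured lay above 0. Ccl5, an attractant of T cells, was at 115 in NCO, 100.1 in ACO and 259.6 in ASO, a difference of 1.04. Cxcl10, an interferon-induced attractant of T cells, was at 131 in NCO, 166 in ACO and 382 in ASO, a difference of 1.00. Both probes were dim, and ASO was the highest of the 3 arrays for each. Ccl12 and Ccl9 differed by 0.50 and 0.56. The homeostatic chemokine genes Cxcl12, Cxcl14 and Cx3cl1 lay at -0.16, 0.088 and 0.19. Of 4 measured cytokine genes 3 lay below 0, led by the growth factor gene Tgfb2 at -0.30, and over chemokines and cytokines together 7 of 12 lay above 0. Il1a, Il1b, Il6 and Tnf were not above background on both arrays, so no difference in these cytokines was measurable. Tlr2, a receptor for bacterial lipopeptides, was at 0.51, and Ptgs2, the inducible cyclooxygenase, at -0.50.

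Among astrocyte genes a few markers of the reactive state stood out. Gfap had a signal of 2888 in NCO, 2878 in ACO and 5207 in ASO and a difference of 0.84, and its other probes ranged from 0.71 to 0.97. Vim, the partner filament protein, was at 1278 in NCO, 1581 in ACO and 2384 in ASO, a difference of 0.58. Lcn2, an iron-binding secreted protein of the acute phase, was at 82.0 in NCO, 109.6 in ACO and 279 in ASO, a difference of 1.05. These filament genes and Lcn2 were highest on ASO. Timp1, a protease inhibitor, was at 40.6 in NCO, 44.1 in ACO and 119.9 in ASO, a difference of 0.85. Serpina3n, another common marker, was close to 0 at 0.081. In the list 23 of 27 genes lay above 0, with a median of 0.10 and 4 at least 1.5-fold higher. Astrocyte identity genes had the same median, 0.10, led by the gap junction gene Gjb6 at 0.47.

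**Figure D4:**
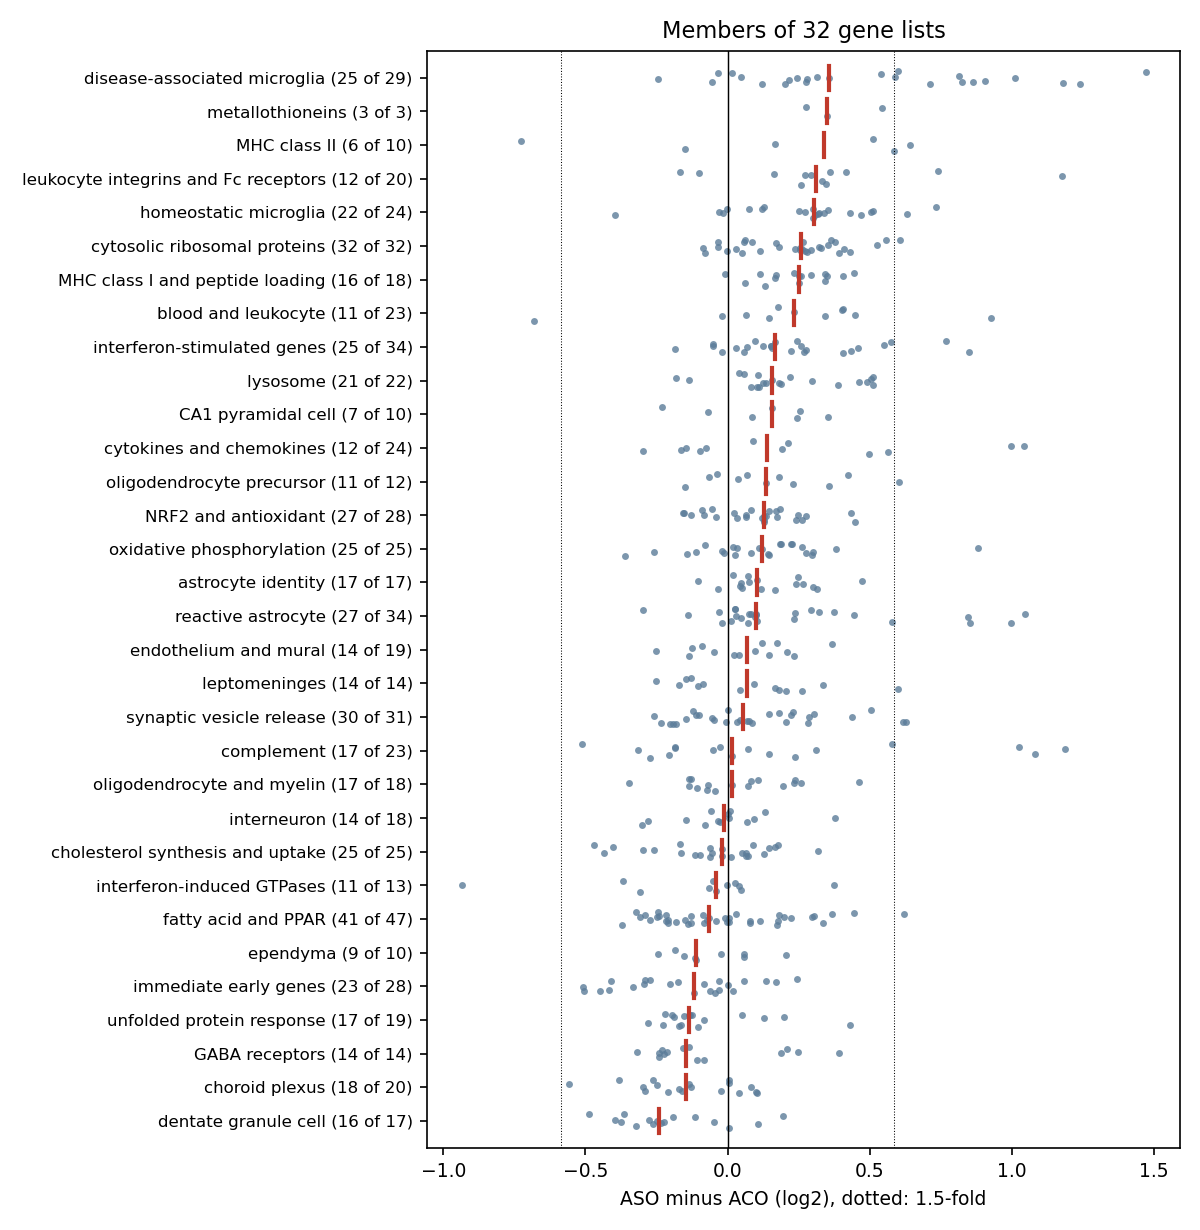
Log2 differences of ASO minus ACO (x axis) for the measured members of 32 gene lists (y axis, with measured of all members), 1 dot per gene, a red bar at each median and dotted lines at 1.5-fold. Medians run from -0.24 for dentate granule cells to 0.36 for disease-associated microglia.

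The lists of neurons went in different directions. Of the dentate granule cell genes 13 of 16 were below 0, with a median of -0.24 and none past 1.5-fold. Their summed signal was 18845 in NCO, 21249 in ACO and 17995 in ASO. The median of the list was 0.11 for ACO minus NCO and -0.13 for ASO minus NCO, so ACO stood above NCO here. Calb1, the calcium buffer calbindin, had a signal of 1217 in NCO, 1304 in ACO and 915 in ASO, differences of -0.49 and, on the second probe, -0.082. Stxbp6, Pdyn, which encodes the opioid precursor prodynorphin, and Trpc6 differed by -0.40, -0.38 and -0.37, and Prox1, the factor that fixes granule cell identity, by -0.25. CA1 markers had a median of 0.16, CA3 markers of 0.051 and interneuron markers of -0.012. Markers of neighbouring striatum and thalamus had a median of -0.0038, with Penk at -0.48.

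Immediate early genes, which neurons switch on when they fire, were mostly lower on ASO, with 17 of 23 below 0 and a median of -0.12. The 6 above 0 stand beside 40.5% of the sixth brightness class, which holds the list's median signal and had a median of -0.047. Egr1 was at 5686 in NCO, 5583 in ACO and 4074 in ASO, a difference of -0.45, with NCO and ACO close together. Egr2, Fos, Nr4a1 and Arc differed by -0.51, -0.42, -0.33 and -0.29, with an SD of 0.090 over the 9 spots of Fos. Bdnf, the activity-dependent neurotrophin gene, was at 847 in NCO, 887 in ACO and 655 in ASO, a difference of -0.41. Jun and Junb lay above 0 at 0.17 and 0.24, and Npas4 at -0.12. Subunit genes of GABA receptors, which carry inhibition, were lower in 10 of 14 cases, with a median of -0.15 and a range from -0.32 for Gabrg1 to 0.39 for Gabbr2. The 4 above 0 stand beside 47.1% of all genes and 37.9% of the eighth brightness class, which holds the list's median signal. The median of that class was -0.056.

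Markers of choroid plexus, the epithelium that makes cerebrospinal fluid in the ventricle next to the hippocampus, were read as a sign of tissue taken along. Of 20 genes 18 were measured and 12 were below 0, with a median of -0.15, led by Kcne2 at -0.56 and Otx2 at -0.38. The 6 above 0 stand beside 47.1% of all genes. In the fifth brightness class, which holds the list's median signal, 45.4% lay above 0, with a median of -0.0215. Ttr, transthyretin, had a signal of 20070.1 in NCO, 14579 in ACO and 15657 in ASO, a difference of 0.10. Summed over the measured members, the signal was 45559 in NCO, 45897 in ACO and 43954 in ASO. Ttr makes up much of that sum and runs against it: the median of the list was 0.39 for ACO minus NCO and 0.23 for ASO minus NCO. The median of ependyma genes was -0.11, of leptomeninges genes 0.067 and of endothelium and mural genes 0.068. The part of dissection in the neuronal differences was not tested.

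Because the treatment was an oil, genes of lipid handling were read as a group. Fatty acid and PPAR genes had a median of -0.067, with 17 of 41 above 0, beside 47.1% of all genes. This is near the seventh of the 10 brightness classes, which holds the list's median signal. There 38.9% of genes lay above 0, with a median of -0.0545. The one list member past 1.5-fold was Acot1, a thioesterase that frees fatty acids from CoA. It had a signal of 1049 in NCO, 1026 in ACO and 1604 in ASO and a difference of 0.62. Plin2, which coats lipid droplets, was at 0.37, and the fasting-induced factor Angptl4 at -0.37. Genes of fatty acid oxidation lay below 0 in 10 of 13 cases, with Hadhb at -0.22, Acadl at -0.29 and Cpt1a at -0.082, and the desaturase gene Fads1 was at -0.32. In cholesterol synthesis 11 of 25 genes lay above 0, beside 40.5% in the sixth brightness class, which holds that list's median signal. Hmgcs1, the synthase that feeds the pathway, was at 9648 in NCO, 10121 in ACO and 7298 in ASO, a difference of -0.47, and Msmo1 and Idi1 were at -0.43 and -0.40, while Sqle, a later enzyme of the pathway, lay at 0.050. Ugcg, which makes the first glycosphingolipid from ceramide, was at 479 in NCO, 389.6 in ACO and 234 in ASO, a difference of -0.63.

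Genes of detoxification and stress lay on both sides of 0. NRF2 and antioxidant genes had a median of 0.13, with 20 of 27 above 0 and none past 1.5-fold, and the classic target Hmox1 was at 0.18. Gstm1, a glutathione transferase, was at 0.45, and its relative Gstm3, outside the list, at 278 in NCO, 256 in ACO and 549 in ASO, a difference of 0.97. The metal-binding metallothionein genes Mt1, Mt2 and Mt3 differed by 0.54, 0.35 and 0.28, in very bright probes. The cytochrome P450 genes Cyp4f15 and Cyp4f14, whose enzymes hydroxylate fatty acids and eicosanoids, were at 0.67 and 0.58, and the dioxin receptor gene Ahr at -0.46. Unfolded protein response genes lay below 0 in 13 of 17 cases, with a median of -0.14 and Hspa5, the chief chaperone of the endoplasmic reticulum, at -0.16. The 4 above 0 stand beside 38.9% of the seventh brightness class, which holds the list's median signal and had a median of -0.0545.

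Genes of amyloid and tau had a median of 0.12, with 14 of 23 above 0. App, the amyloid precursor gene, was at -0.13, and the secretase gene Bace1 at -0.018. Clu, a secreted chaperone that binds amyloid, was at 43143 in NCO, 43397 in ACO and 63693 in ASO, a difference of 0.55 that may be understated, since 45% of its pixels were saturated on ASO. Mapt, the tau gene, was at -0.033.

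Some of the largest differences were in genes outside the groups above and rest on single probes. Rpl34-ps1, a ribosomal protein pseudogene name that can stand for near-identical transcripts, was at 786 in NCO, 731 in ACO and 2028 in ASO, a difference of 1.41. Ppp5c, a serine/threonine phosphatase, was at 618 in NCO, 657 in ACO and 1471 in ASO, a difference of 1.10, and Lepr, the leptin receptor, at 284 in NCO, 244 in ACO and 572 in ASO, a difference of 1.08. Fgf23, a phosphate-regulating hormone of bone, had a signal of 3495 in NCO, 4268 in ACO and 9168 in ASO, a difference of 1.09. Pinx1, an inhibitor of telomerase, was at 1499.6 in NCO, 454 in ACO and 1009.6 in ASO, a difference of 1.07, so that ACO was the low array and ASO lay between. Idua, a lysosomal hydrolase, was at 1.04 on one probe and at -0.0026 on the other. The remaining genes among the 20 highest by the naming rule were Tex44, Lbhd2, Cby1, Aoc2, Ccdc114 and Rpl26-ps4, at 0.91 to 0.98.

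The lowest gene was Ppp2r2c, a regulatory subunit of phosphatase 2A in brain, with a signal of 12507 in NCO, 13141 in ACO and 4739.6 in ASO on 1 probe, 2.75-fold lower on ASO than on ACO. Sh3bgr had a signal of 2139.8 in NCO, 3306 in ACO and 1359 in ASO and differences of -1.25 and -1.11 on its 2 probes, with NCO between ACO and ASO. Casp2, a caspase of the cell death machinery, was at 1167 in NCO, 1193 in ACO and 583 in ASO, a difference of -0.97. Tbpl1, a relative of the TATA-binding protein, was at -0.94. Tardbp, which encodes the RNA-binding protein TDP-43, was at -0.90 on its brightest probe and between -0.080 and -0.029 on the others. Pkia, Shc4, Bccip, Ppp1r12c, Itga11, Cabp5 and Zfp81 filled the 15 lowest, from -0.71 to -0.63, and Zfp81 was at 0.21 on its second probe.

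Some genes were above background on 1 of the 2 arrays, which gives a bound against the dimmer array. Ifi214, an interferon-inducible gene, had a signal of 15.1 in NCO, 1893 in ACO and 19.8 in ASO, so that ACO was at least 27.8-fold brighter than ASO and NCO was low as well. Cstdc2, a cystatin family gene, had a signal of 970 in NCO, 18.5 in ACO and 646 in ASO, at least 10.2-fold brighter on ASO than on ACO, with NCO high. Of all probes, 51.7% were above background on ACO and 53.7% on ASO. Of 23611 named genes, 604 had such a bound towards ASO and 239 towards ACO, and the part of array brightness in this split was not tested. With predicted and clone names left out, the leading ones towards ASO besides Ccl4 and Lyz2 were Ms4a19 and the cathepsin E gene Ctse, at least 1.86 and 1.70-fold. Towards ACO, by the same rule, they were Dach2, Dnal1, the cartilage matrix gene Comp and Sowahb, from at least 1.29 to 1.37-fold.

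Agreement between probes limits what a single probe can show. The 238 probes repeated at 10 spots had a median SD of 0.094 between their spots. A different measure, the gap between the 2 brightest probes of a gene, had a median of 0.16 over 3071 genes. The differences on these 2 probes had a Pearson correlation of only 0.24. Over all genes the SD of the differences was 0.22. Of 35 genes at least 1.5-fold higher that had a second probe, it lay above 0 in 27 and was at least 1.5-fold higher in 2. Among glial and immune genes with a second probe, 18 had a first probe above 0 and 16 of these a second one above 0, beside 64.6% over all genes. A stricter rule, not comparable with that count, also took genes with a first probe below 0. It asked every other probe to lie on the same side as the first. It was met by 3 of 6 disease-associated microglia genes and 3 of 5 complement genes. The C1q genes, Trem2, Tyrobp, Cst7 and Cd52 were each read by a single probe.

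**Figure D5:**
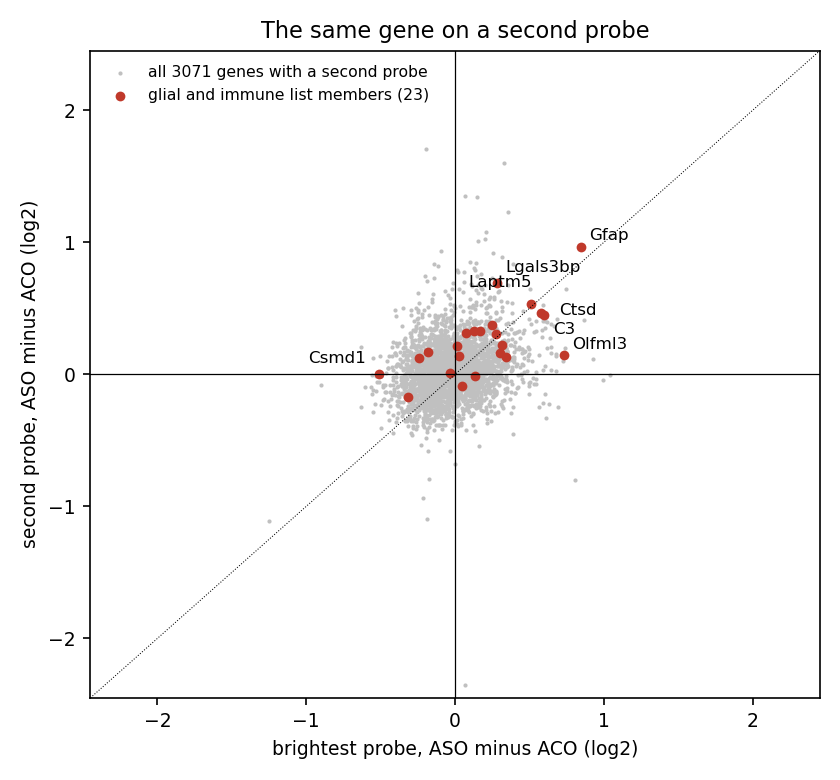
Log2 difference of ASO minus ACO on the second probe (y axis) against the brightest probe (x axis) of each gene, with the diagonal dotted and 23 members of the complement, microglia, leukocyte, MHC and reactive astrocyte lists in red. Gfap, C3, Laptm5 and Ctsd lie near the diagonal, and Olfml3 and Csmd1 near 0 on the second probe.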

How the data were processed

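Groups were taken from the labels. Spot intensities are foreground and local background medians that the authors obtained at 532 nm on a GenePix 4000B scanner with GenePix Pro 6.1.0.4, not normalized, per the file headers. For each spot the authors also deposited a signal to noise score and, per the file headers, a percent of pixels at saturation. The submitters' processing notes name Agilent Feature Extraction; the files held GenePix columns. The authors' deposited table of intensities for 475 probes, with medians of 117, 97.4 and 113 on NCO, ACO and ASO, is a straight line of the foreground medians (slopes 1, 0.917 and 0.893); why the slopes differ stays unknown. All 3 arrays lay on 1 slide.

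Background was corrected with limma 3.58.1 (normexp, offset 0, R 4.3.3) on all spots. Gene spots were scaled to a common 75th percentile (factors 1.06, 0.949 and 0.991), 50 was added, log2 taken and spots of a probe averaged. A probe entered at a signal to noise of at least 2.6 on ACO and ASO, below 50% saturated pixels on at least 1 of them, and outside rows 133 to 148 and columns 190 to 202, a dark patch on ASO where 95 measured spots had a median difference of -0.12. Just inside the signal to noise limit (2.6 to 3) the median difference was 0.043, and just outside (2.2 to 2.6) 0.044. Each gene took its entered probe with the highest mean signal. Probes were named through a RefSeq table, used for names only: 26581 by accession, 2597 by symbol, 490 by synonym, 20 by a listed hit and 1704 as in the file, with 8037 unnamed.

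With 1 pool per array no test was run. The comparison and its 49 gene lists were chosen with earlier results of these data known. Named genes are list members, the 20 highest and 15 lowest genes at or above the lower quartile of signal with a gene name that is not a predicted or clone name, and the 5 highest and lowest bounds. A bound sets the brighter array's signal against the higher of the dim array's own signal there and the lowest signal well above background on it. Alternatives changed the background, spot statistic, scaling, constant, filter, dark patch, surroundings and probe rule. The steps were tested on simulated data. No sequence is printed, and some list members are not reported here.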

Additional observations from a re-analysis of the deposited data

How the results depend on the processing

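Apart from the spike-in scaling, 68 genes, the highest and lowest by the naming rule and list members at least 1.5-fold apart, kept their direction in all 687 values under the other alternatives. These genes were picked for large differences, so small changes of processing could hardly turn them. Of all 796 list members and rule-named genes, 162 turned under at least 1 of these other alternatives. They included 129 of the 234 with differences under 0.1 and 2 of the 267 at 0.25 or more. Among those named here, the genes that turned were Bst2, Csf1, Hba-a1, Lgals3, Mapt, Mef2c and Sqle. Of the list medians, 15 leading ones stayed on their side of 0 in all but 2 of 150 values. Both exceptions were the median of complement, which ranged from -0.014 to 0.061. With a constant of 16, 38 genes were at least 2-fold higher and 40 at least 1.5-fold lower. With the dark patch kept, 9 were at least 2-fold and 37 at least 1.5-fold lower, since the patch's spots entered. Quantile normalization gave medians of 0.10 for ribosomal proteins and 0.21 for metallothioneins. The latter median was 0.24 from spot means. Immediate early genes were at -0.22 less the surrounding spots, and disease-associated microglia at 0.49 with all probes averaged. Hypothalamus and pituitary, with 3 genes measured, turned to -0.15 at a signal to noise of 5 and to -0.013 less the surroundings. The causes were not tested.

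Scaling on spike-in probes, chosen after seeing the data, lowers every difference by the same amount. It left 2 genes at least 2-fold higher and 53 lower, and 18 and 4213 at 1.5-fold. Under it all 32 list medians above 0 fell below it. Those that had stood at a size above the spot error went to -0.12 for disease-associated microglia, -0.17 for homeostatic microglia, -0.17 for leukocyte integrins and Fc receptors, -0.14 for MHC class II, -0.23 for MHC class I and peptide loading, -0.31 for interferon-stimulated genes, -0.34 for cytokines and chemokines, -0.38 for reactive astrocyte, -0.38 for astrocyte identity, -0.34 for oligodendrocyte precursor, -0.32 for CA1 pyramidal cell, -0.36 for amyloid and tau, -0.35 for NRF2 and antioxidant, -0.13 for metallothioneins, -0.32 for lysosome, -0.36 for oxidative phosphorylation, -0.22 for cytosolic ribosomal proteins, -0.25 for blood and leukocyte, -0.34 for perivascular macrophage and monocyte and -0.36 for hypothalamus and pituitary; complement, which stood near 0, went to -0.46. Leading medians already below 0 went to -0.72 for dentate granule cell, -0.60 for immediate early genes, -0.63 for GABA receptors, -0.55 for fatty acid and PPAR, -0.62 for unfolded protein response and -0.63 for choroid plexus. The authors' table held the probes of 13 named genes, too few for counts or lists. No replicate could be left out. No paired analysis was possible because each group has 1 array.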

Other observations

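Transcripts of the protein-making and energy machinery were also mostly higher on ASO. Of 32 cytosolic ribosomal protein genes 27 lay above 0, with a median of 0.26, led by Rplp0 at 0.61, Rpl4 at 0.56 and Rpl37 at 0.53. On ASO 25% of the pixels of Rpl37 were saturated. Rplp0 was at 0.16 to 0.41 on its other probes. In the brightest of 10 classes of genes the median was 0.027. Among 24 measured probes named after ribosomal protein pseudogenes, 23 lay above 0 and 10 were at least 1.5-fold higher, with a median of 0.31. This group was chosen after its values were seen, and such probes may read near-identical transcripts. In oxidative phosphorylation 18 of 25 subunit genes lay above 0, from Ndufs1 at -0.36 to Atp5o at 0.88.

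Synaptic genes went both ways. The calcium sensor gene Syt1 was at 24106 in NCO, 21899 in ACO and 33851 in ASO, a difference of 0.63. Cplx2, which clamps vesicle fusion, was at 0.62, with 0.39 to 0.79 on its other probes. The vesicle release list as a whole had a median of 0.055, with 18 of 30 above 0. Among glutamate receptor genes the kainate receptor subunit Grik5 was at 2053 in NCO, 1606 in ACO and 2793 in ASO, a difference of 0.78, and Grik2 at -0.45. Core clock genes had a median of 0.085, heat shock genes of -0.041 and myelin genes of 0.015. Of the cholinergic list 9 of 14 genes were measured, with a median of -0.010. Sult1a1, a sulfotransferase counted with the glucocorticoid targets, was at 358 in NCO, 438 in ACO and 270.5 in ASO, a difference of -0.61, and that list had a median of -0.082. Bcan, a matrix proteoglycan of the oligodendrocyte precursor list, was at 0.60, and Col1a1, a collagen of the leptomeninges, at 0.60.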
